A study of Mus musculus with 14 samples.

Results

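The genes described here encode the proton pump that acidifies lysosomes, the cathepsins that digest protein inside them and the Lamp glycoproteins of their membrane. They were taken by symbol from the deposited gene table, as every gene named Atp6v0, Atp6v1, Atp6ap, Cts with a single further letter, or Lamp with a digit. This gave 40 of the 17552 genes of the table. Of the 40, 34 had at least 100 counts in the groups together, as did 13291 genes of the whole table, and the other 6 are given with their counts only.

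The vacuolar proton pump (V-ATPase) is a rotary machine with a cytosolic V1 sector that splits ATP and a membrane V0 sector that carries protons. Its acid lumen is needed for cathepsins to mature and to work. Cathepsins are named for the residue at their active site as cysteine, aspartic or serine proteases, and in liver they are made by hepatocytes and, for several members, at high levels by resident macrophages (Kupffer cells). Lamp1 and Lamp2 are heavily glycosylated proteins of the lysosomal membrane, and an isoform of Lamp2 serves as receptor in chaperone-mediated autophagy. Many of these genes carry the E-box element read by TFEB and its relatives, transcription factors that control lysosome formation.

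Livers came from male Apoe-deficient mice on the C57BL/6 background (C57BL/6J in the study's methods). The labelled age of 8 weeks is read as that at the start of feeding, since the labels also give 8 weeks on the diets. The control group received a purified Western diet with cholesterol and palm oil. The erythrodiol group received the same diet with erythrodiol, a triterpene alcohol of the olive. By the study's methods its estimated dose was 10 mg per kg of mouse. The labels give 8 weeks on the diets, and the study's methods give a longer time. Each group held 7 libraries of polyA RNA, each made from RNA of a few mice mixed together, so that differences between single mice were not measured. Mice of both groups lack apolipoprotein E, and none of these samples came from a mouse with that gene intact.

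Gene expression was given as 1 expected count per gene and group, the sum over the 7 libraries of that group. There are thus no replicates at the level of genes, no comparison of genes could be tested, and every difference below is a difference between a pair of sums without a replicate check. Counts summed to 122889032 in the control and 124686047 in the erythrodiol group. Control libraries held 34856340 to 55244294 clean reads and erythrodiol libraries 47669656 to 48058606. Estimated from reads and mapping rates, single libraries supplied 9.12% to 17.3% of the control sum and 13.9% to 14.6% of the erythrodiol sum. Control replicate 3 had the lowest share of reads mapped to genes (64.3%, against a control median of 75.3%), and it cannot be taken out of the sums. Apoe itself kept 9403 counts in control and 8293 in erythrodiol livers, and these counts do not show which part of the transcript they cover. By RT-PCR of hepatic RNA, the study reports no Apoe expression in its Apoe-deficient mice.

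Before the values, promoter windows of 8 of these genes are shown. They hold the E-box usual in lysosomal genes or, in Ctss and Atp6v0c, the related M-box. RefSeq promoter windows on GRCm38.p6, from 250 bases before to 50 bases after a transcript start, were found for 30 of the 40 genes (34 windows). The core TCACGTGA of the TFEB-type element, which reads the same on both strands, stood in the windows of 5 of these 30 genes (16.7%), namely Ctsd, Ctsa, Atp6v1a, Atp6v0d1 and Atp6v0e. It stood in the windows of 1.12% of all 27025 genes with a window. The shorter E-box CACGTG, which lies inside that core, stood in 9 of the 30 genes (30%) and in 8.09% of all genes, and its other holders were Lamp1, Ctsl, Ctsf and Atp6v0b. Of windows rather than genes, 0.974% of all 32851 held the core and 7.15% the E-box. Capitals below mark every match on either strand to the core, the E-box, the M-box TCATGTGA (TCACATGA on the other strand) or the PU.1-type box GAGGAAGT (ACTTCCTC on the other strand). The first 250 bases of each run precede an annotated start and the last 30 follow it. For Ctsa, Atp6v1a and Atp6v0c that start lies inside the span of the gene. Their runs thus lie within the gene, for Atp6v0c in most of its length, and not upstream of it.
Ctsd: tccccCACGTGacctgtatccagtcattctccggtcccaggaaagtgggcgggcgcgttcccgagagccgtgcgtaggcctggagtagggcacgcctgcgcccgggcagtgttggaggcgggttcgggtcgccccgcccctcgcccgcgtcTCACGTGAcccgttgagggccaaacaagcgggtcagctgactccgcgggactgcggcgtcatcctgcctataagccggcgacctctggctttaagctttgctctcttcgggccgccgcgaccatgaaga
Ctsa: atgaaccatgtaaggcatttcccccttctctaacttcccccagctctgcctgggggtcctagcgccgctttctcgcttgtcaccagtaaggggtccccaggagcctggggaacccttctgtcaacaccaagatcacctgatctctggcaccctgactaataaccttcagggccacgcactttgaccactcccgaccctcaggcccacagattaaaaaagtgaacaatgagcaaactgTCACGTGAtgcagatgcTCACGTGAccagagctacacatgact
Atp6v1a: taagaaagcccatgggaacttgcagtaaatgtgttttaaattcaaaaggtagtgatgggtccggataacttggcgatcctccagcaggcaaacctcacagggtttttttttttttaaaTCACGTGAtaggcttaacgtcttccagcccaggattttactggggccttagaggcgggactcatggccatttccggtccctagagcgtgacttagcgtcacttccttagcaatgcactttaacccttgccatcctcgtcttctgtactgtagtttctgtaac
Atp6v0d1: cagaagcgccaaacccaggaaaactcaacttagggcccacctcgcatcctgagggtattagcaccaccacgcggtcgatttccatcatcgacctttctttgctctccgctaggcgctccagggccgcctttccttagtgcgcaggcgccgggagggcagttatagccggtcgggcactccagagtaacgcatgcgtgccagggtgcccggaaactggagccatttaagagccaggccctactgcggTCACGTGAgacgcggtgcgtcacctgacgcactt
Atp6v0e: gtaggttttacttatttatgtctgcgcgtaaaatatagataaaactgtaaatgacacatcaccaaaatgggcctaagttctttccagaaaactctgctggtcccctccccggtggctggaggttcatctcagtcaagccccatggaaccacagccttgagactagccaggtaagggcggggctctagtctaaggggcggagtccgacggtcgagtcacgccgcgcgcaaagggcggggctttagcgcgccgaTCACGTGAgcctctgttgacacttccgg
Lamp1: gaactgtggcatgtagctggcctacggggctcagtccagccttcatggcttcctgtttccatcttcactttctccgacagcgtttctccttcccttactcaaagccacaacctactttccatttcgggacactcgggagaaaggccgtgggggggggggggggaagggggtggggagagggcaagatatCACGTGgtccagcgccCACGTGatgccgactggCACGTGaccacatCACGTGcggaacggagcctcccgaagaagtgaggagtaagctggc
Ctss: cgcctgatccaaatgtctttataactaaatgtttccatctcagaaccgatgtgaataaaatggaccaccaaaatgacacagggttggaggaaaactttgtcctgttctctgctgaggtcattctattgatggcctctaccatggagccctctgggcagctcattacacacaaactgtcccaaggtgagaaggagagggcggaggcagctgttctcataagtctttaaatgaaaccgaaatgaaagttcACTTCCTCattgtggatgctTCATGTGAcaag
Atp6v0c: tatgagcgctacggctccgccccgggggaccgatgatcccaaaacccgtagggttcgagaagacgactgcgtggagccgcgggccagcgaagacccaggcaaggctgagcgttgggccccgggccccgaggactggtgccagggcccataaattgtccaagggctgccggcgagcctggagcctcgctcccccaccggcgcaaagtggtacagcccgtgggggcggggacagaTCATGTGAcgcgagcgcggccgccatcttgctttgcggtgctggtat

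On GRCm38.p6 these runs were chr7:142387798-142388077 (minus strand) for Ctsd, chr2:164833523-164833802 (plus strand) for Ctsa, chr16:44139230-44139509 (minus strand) for Atp6v1a and chr8:105566035-105566314 (minus strand) for Atp6v0d1. The others were chr17:26676146-26676425 (plus strand) for Atp6v0e, chr8:13158911-13159190 (plus strand) for Lamp1, chr3:95526536-95526815 (plus strand) for Ctss and chr17:24169421-24169700 (minus strand) for Atp6v0c. With the start counted as base 1 and the base before it as -1, the core of Ctsd began at -99, that of Atp6v1a at -132 and that of Atp6v0d1 at -4. Ctsa held the core at -13 and again at 5, and Atp6v0e held it at 3. Lamp1 had no core but 4 E-boxes between -61 and -15. The M-box, a related element of the same factor family, was found in Ctss at 19 and in Atp6v0c at -17, which is 6.67% of the 30 genes against 1.15% of all genes. The PU.1-type box, named for a transcription factor of macrophages, was found in Ctss at -2 and in Ctsc at -151, against 3.69% of all genes. A match describes letters in a window and not a binding site. The 10 genes without a window were Atp6v0a2, Atp6v0d2, Atp6v1b2, Atp6v1c1, Atp6v1g1, Atp6v1h, Ctsb, Ctse, Ctsh and Ctsw.

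The 40 genes together held 0.523% of control and 0.497% of erythrodiol counts. To compare genes with each other, counts were scaled to CPM (counts per 1000000 counts) of the group's total and divided by transcript length in kilobases (CPM per kb). Summed levels in CPM below run over genes with at least 100 counts. Per length, 3 proteases and both membrane glycoproteins stood highest. Ctsh (189) and Ctsz (133) also lay above every pump gene in control, and the remaining cathepsins lay among or below the pump subunits. Ctsb, an abundant cysteine protease of many tissues, led in control with 433, followed by Lamp2 (318), the aspartic protease Ctsd (299.6), Ctsl (289) and Lamp1 (283). The highest pump gene was Atp6v0c, which encodes the proteolipid of the rotating membrane ring, with 125. The remaining subunits and accessory genes lay between 5.97 (Atp6v0a2) and 89.3 (Atp6v1f). Atp6v0d2, Atp6v1g2 and Atp6v0e2, subunit forms better known from macrophages, osteoclasts or brain, had 2.59, 1.11 and 0.546.

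**Figure D1:**
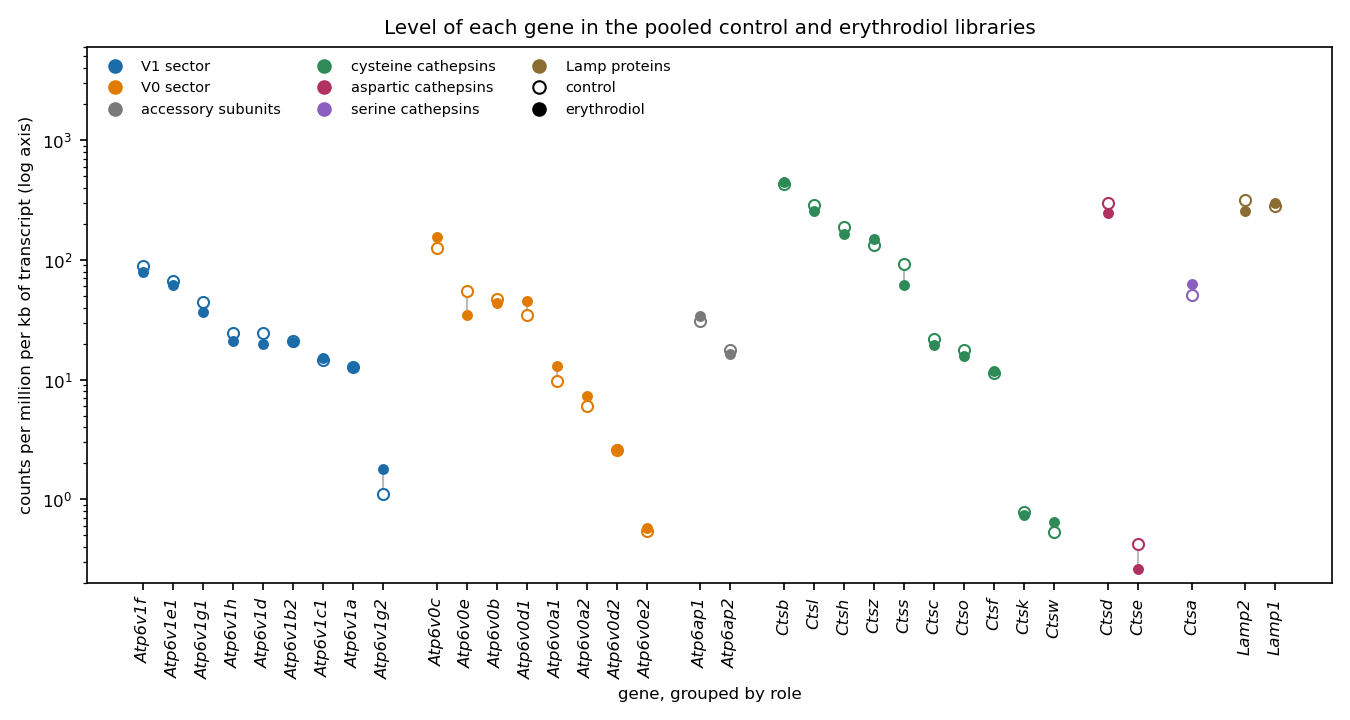
Level of the 34 genes with at least 100 counts, as CPM per kb of transcript on a log axis, grouped by role and ordered by the control level. Open circles are the control sum and filled circles the erythrodiol sum, 1 value per group with no error. Ctsb lies highest at 433 in control and 448 with erythrodiol, and the gap between the circles is widest for Atp6v1g2, Ctse, Atp6v0e and Ctss.

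Differences between the groups are given on 2 scales. The log2 ratio is that of erythrodiol to control after each sum was divided by its total. On this scale the middle of all 13291 genes was at 0.16 and not at 0, and the ratio was higher for longer transcripts: the median of the 500 genes nearest in length was -0.34 at Atp6v1f (635 bases) and 0.31 at Ctsc (6745 bases). The length-relative ratio is the log2 ratio minus that median, so that it does not depend on how the sums are scaled. A gene is called higher or lower when it is past 1.2-fold, that is 0.26 on the log2 scale. Brackets after a ratio give its 95% interval from an exact binomial split of the 2 counts. This covers counting error only and neither the spread between mice nor that between libraries. For the length-relative ratio the median of the neighbours was taken as exact, and another choice of neighbours moved some genes outside their intervals.

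By the log2 ratio, 6 of the 34 genes were higher and 7 lower past 1.2-fold, where 33.7% of all genes were higher and 11.4% lower. The higher genes were Atp6v1g2, Atp6v0a1, Atp6v0a2, Atp6v0c, Atp6v0d1 and Ctsa, and the lower ones Atp6v1d, Atp6v1g1, Atp6v0e, Ctsd, Ctse, Ctss and Lamp2. By the length-relative ratio, 3 genes were higher (8.82%) and 11 lower (32.4%), where 9.49% of all genes were higher and 17.6% lower. Their median was -0.06 on the first scale, against 0.16 over all genes, and -0.10 on the second, against -4.6e-05. On both scales 3 genes were higher (Atp6v1g2, Atp6v0c and Atp6v0d1) and 6 were lower (Atp6v1d, Atp6v0e, Ctsd, Ctse, Ctss and Lamp2). The sign differed between the scales for 8 genes with small ratios, namely Atp6v1c1, Atp6v1f, Atp6v0b, Atp6v0d2, Atp6v0e2, Ctsb, Ctsf and Lamp1. None of the 34 was past 2-fold on either scale, a limit that 0.218% of all genes passed upwards and 0.549% downwards by the log2 ratio and 0.158% and 0.474% by the length-relative ratio. The counting interval of the length-relative ratio lay below 0 for 19 genes, above 0 for 7 and across 0 for 8. The same count was not made over all genes, so these numbers have no background. Such intervals narrow with depth, and the 34 genes had a median of 12858 counts against 3763 over all genes.

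**Figure D2:**
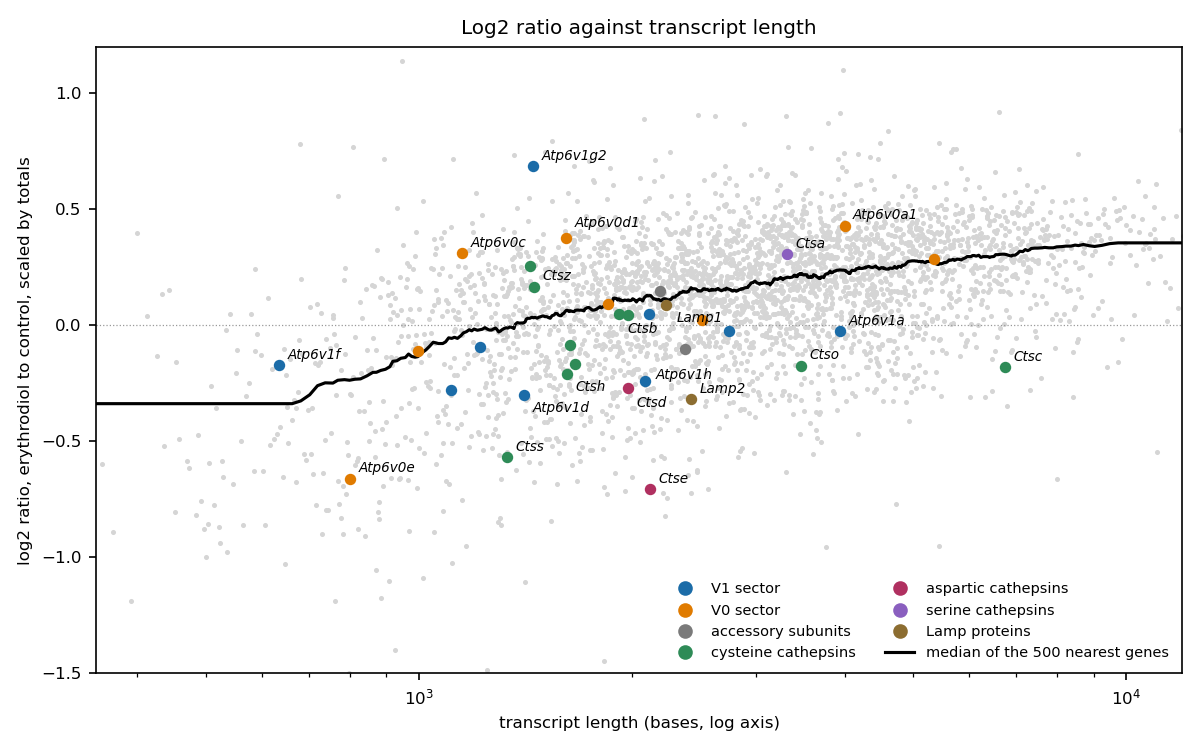
Log2 ratio between the groups (erythrodiol over control, each sum divided by its total) against transcript length in bases on a log axis. Grey points are 3291 genes out of the 3323 drawn from every length (32 lie outside the axes), coloured points are the 34 genes, and the black line is the median of the 500 genes nearest in length, which runs from -0.34 at the shortest of the 34 to 0.31 at the longest. Ctsc, Ctss, Ctse, Ctsd and Lamp2 lie below the line, and Atp6v1g2, Atp6v0c and Atp6v0d1 above it.

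In the V1 sector, the part of the pump that splits ATP, 7 of 9 subunit genes had a length-relative ratio below 0. Of all 13291 genes, 6648 did. Past 1.2-fold 3 of the 9 were lower (33.3%) and 1 higher (11.1%), where 17.6% and 9.49% of all genes were. The median of the 9 was -0.09 by the log2 ratio and -0.18 by the length-relative ratio. Summed over the 9 genes the level was 414 CPM in control and 380 in erythrodiol livers, a ratio of 0.917. Atp6v1h encodes the regulatory subunit that couples V1 to V0 and had 6362 counts in control and 5469 with erythrodiol, with a length-relative ratio of -0.36 [-0.42, -0.31]. Among its 500 neighbours in length, 63 had a lower ratio. Atp6v1d, a part of the central rotor stalk, had 4278 and 3522 counts and a length-relative ratio of -0.32 [-0.38, -0.25]. Atp6v1a, the catalytic subunit, had nearly the same counts, 6243 and 6226, and a log2 ratio of -0.02 [-0.08, 0.03]. As genes of its length (3946 bases) had a median of 0.24, its length-relative ratio was -0.26, just past the limit.

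The other V1 genes were not past the limit on the length-relative scale apart from Atp6v1g2. Atp6v1b2, the ATP-binding partner of the catalytic subunit, had 7048 and 7032 counts and a length-relative ratio of -0.18. Atp6v1g1, of the peripheral stalk, had 6038 and 5054 counts, a log2 ratio of -0.28 and a length-relative ratio of -0.22. Its partner in that stalk, Atp6v1e1, had 9897 and 9420 counts and a length-relative ratio of -0.07. Of these 3 genes Atp6v1g1 was thus lower past 1.2-fold by the log2 ratio but not among genes of like length. Atp6v1c1, which joins V1 to V0, had 3813 and 4005 counts and a length-relative ratio of -0.08. For Atp6v1f, a small rotor subunit with 6969 and 6278 counts, the log2 ratio was -0.17 and the length-relative ratio 0.17 [0.12, 0.22]. That sign turned again, to -0.04, when the neighbours were matched on length and level together, so no direction can be given for Atp6v1f.

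Atp6v1g2, the form of the G subunit best known from neurons, had 198 counts in control and 323 with erythrodiol. The log2 ratio was 0.69 [0.43, 0.95] and the length-relative ratio 0.65 [0.39, 0.92], and 496 of its 500 neighbours had a lower ratio. It was the highest of all 34 genes on both scales, at a level of 1.11 and 1.78 CPM per kb. Its gene on chromosome 17 (35234931 to 35238767) overlaps Nfkbil1, and the sources used here do not give whether reads were counted by strand.

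In the V0 sector, which carries the protons, the median was 0.19 by the log2 ratio and 0.02 by the length-relative ratio. With edgeR's TMM scaling or the median of ratios it was 0.03 and 0.04. The summed level of the 8 genes was 369 CPM in control and 422 with erythrodiol, a ratio of 1.14, and 1.08 without Atp6v0c, which TMM lowers to below 1. The sector held 2 of the 3 genes that were higher on both scales, and also the lowest pump gene. By the log2 ratio neither of the 2, Atp6v0c and Atp6v0d1, stayed past the limit with TMM (0.15 and 0.22) or the median of ratios (0.16 and 0.23). Atp6v0c, the proteolipid of the ring, had 17660 counts in control and 22213 with erythrodiol, a log2 ratio of 0.31 [0.28, 0.34] and a length-relative ratio of 0.35 [0.32, 0.38]. Atp6v0d1, which seats the rotor on the ring, had 6899 and 9102 counts, a log2 ratio of 0.38 [0.33, 0.42] and a length-relative ratio of 0.31 [0.27, 0.36]. Of their 500 neighbours each, 458 and 460 had a lower ratio. Atp6v0d1 carries the TFEB-type core across its start, beginning at -4, and Atp6v0c carries the M-box, as printed above.

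Atp6v0e, which encodes a small membrane subunit and also carries the core, went the other way. It had 5402 counts in control and 3467 with erythrodiol, so that its level was 54.9 and 34.8 CPM per kb. The log2 ratio was -0.66 [-0.72, -0.60], and short genes such as this one (800 bases) had a median of -0.23. Its length-relative ratio was -0.43 [-0.49, -0.37], the lowest of the pump. It lies on chromosome 17 (26676396 to 26699647), as does Atp6v0c (24163865 to 24169678), while Atp6v0d1 lies on chromosome 8 (105524461 to 105566064). The large a subunits, which form the path of the protons through the membrane, were higher by the log2 ratio but not past the limit among genes of like length. Atp6v0a1 had 4789 and 6546 counts and ratios of 0.43 and, among genes of like length, 0.19. Atp6v0a2 had 3931 and 4868 counts and ratios of 0.29 and 0.02. Atp6v0b, a further ring protein, had 5788 and 5434 counts and a length-relative ratio of 0.02, which turned to -0.04 with neighbours matched on length and level. Atp6v0d2 (802 and 828 counts) and Atp6v0e2 (124 and 134 counts) had length-relative ratios of -0.13 and -0.01 with intervals that include 0.

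Several subunits have alternative forms, and their shares at the level of RNA, per length, were compared. The a subunit is also encoded by Tcirg1, whose symbol lies outside the rule above but without which shares cannot be formed. Tcirg1 made up 52.8% of a-subunit RNA in control and 46.9% with erythrodiol, Atp6v0a1 29.1% and 34.0%, Atp6v0a2 17.8% and 18.9%, and Atp6v0a4 0.257% and 0.212%. Per length, Tcirg1 itself had 17.7 and 18.1 CPM per kb. Of d-subunit RNA, Atp6v0d1 held 93.1% and 94.5%. Atp6v1g1 held 97.5% of G-subunit RNA in control and 95.3% with erythrodiol, the rest being nearly all Atp6v1g2. Atp6v0e2 held 0.983% and 1.64% of e-subunit RNA, the rest being Atp6v0e. None of these shares was corrected for the rise of the log2 ratio with length. The median of genes of like length was -0.23 at Atp6v0e and 0.10 at Atp6v0e2. In each of these subunits the form with the largest share was the same in both groups, and Tcirg1 and Atp6v0a1 differed by the most percentage points.

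The accessory proteins of the pump help it assemble and reach its membranes. Atp6ap1 had 8273 and 9304 counts and a log2 ratio of 0.15, which TMM turned to -0.01, and its length-relative ratio was 0.04. Atp6ap2, also known as the prorenin receptor, had 5150 and 4870 counts and a length-relative ratio of -0.24 [-0.30, -0.19], short of the limit. Over all 19 pump genes 3 were higher (15.8%) and 4 lower (21.1%) by the length-relative ratio, with a median of -0.07, where 9.49% and 17.6% of all genes were. Atp6v1a, 1 of the 4, was not past the limit with 1000 neighbours. The summed level of the pump was 892 CPM in control and 915 with erythrodiol, and 749 and 737 without Atp6v0c, so that the direction of the sum rests on that gene, and with TMM or the median of ratios the erythrodiol sum over all 19 genes was below the control sum.

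Among the cathepsins, none of 13 genes was higher and 6 were lower past 1.2-fold by the length-relative ratio (46.2%), with a median of -0.23, where 9.49% and 17.6% of all genes were. By the log2 ratio 1 was higher and 3 were lower, with a median of -0.17, where 33.7% and 11.4% of all genes were. With TMM and the median of ratios this median was -0.32 and -0.31. The summed level of the cathepsins was 2932 CPM in control and 2766 with erythrodiol, a ratio of 0.943, and 0.907 without Ctsb.

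Ctss, a cysteine protease that macrophages and other antigen-presenting cells use to trim the invariant chain of MHC class II, had 15046 counts in control and 10307 with erythrodiol. The gene lies on chromosome 3 of GRCm38 from 95526786 to 95556405. Its level was 91.9 and 62.1 CPM per kb. The log2 ratio was -0.57 [-0.60, -0.53] and the length-relative ratio -0.56 [-0.59, -0.52], the lowest of the cysteine cathepsins. Ctsc, which activates the serine proteases of neutrophil and lymphocyte granules, had 18159 and 16279 counts. Its log2 ratio was -0.18, but with the longest transcript of all 34 genes its length-relative ratio was -0.48 [-0.52, -0.45], and 18 of its 500 neighbours had a lower ratio. Ctso had 7568 and 6809 counts and a length-relative ratio of -0.39 [-0.44, -0.35], with 42 neighbours lower. Ctsh, an aminopeptidase, had 37604 and 32956 counts and a length-relative ratio of -0.28 [-0.30, -0.25], which was -0.25 and within the limit with 200 neighbours.

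The remaining cysteine cathepsins were within the limit among genes of like length. Ctsb had 102379 counts in control and 107414 with erythrodiol, with a log2 ratio of 0.05 and a length-relative ratio of -0.06. Ctsl, an endopeptidase, had 59148 and 53462 counts and a length-relative ratio of -0.23 [-0.25, -0.21]. The most abundant cathepsin therefore differed little between the sums, while Ctsl came close to the limit. Ctsz, a carboxypeptidase, had 23830 and 27154 counts and a length-relative ratio of 0.13 [0.11, 0.16], the only cysteine cathepsin with an interval above 0. Ctsf had 2784 and 2912 counts and a length-relative ratio of -0.06. Ctsw, a protease of natural killer and cytotoxic T cells, had 95 and 115 counts and Ctsk, known from osteoclasts, 159 and 152. The length-relative intervals of Ctsw (-0.18 to 0.63) and Ctsk (-0.47 to 0.19) include 0, so that no difference was detectable at this depth.

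Both aspartic cathepsins were lower. Ctsd, the main aspartic protease of lysosomes, had 72867 counts in control and 61321 with erythrodiol, a log2 ratio of -0.27 [-0.29, -0.25] and a length-relative ratio of -0.38 [-0.39, -0.36]. Its gene lies on chromosome 7 (142375910 to 142387827), and its promoter holds the TFEB-type core and an E-box farther upstream. Ctse, a relative found in stomach and immune cells, had 111 and 69 counts. Its length-relative ratio was -0.83 [-1.29, -0.39], the lowest of the 34 genes, at a level of 0.426 and 0.261 CPM per kb. The serine carboxypeptidase Ctsa, which also protects β-galactosidase and neuraminidase in a complex, had 20620 and 25891 counts. It was higher by the log2 ratio, 0.31 [0.28, 0.33], but not past the limit by the length-relative ratio, 0.10 [0.07, 0.13]. Its gene on chromosome 2 (164832872 to 164841032) overlaps Neurl2 and Pltp, and its counts are not whole numbers, as reads shared with other transcripts were split by the authors' counting.

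Of the membrane glycoproteins, Lamp1 and Lamp2 had like levels but unlike ratios. Lamp2 had 94727 counts in control and 77030 with erythrodiol, a log2 ratio of -0.32 [-0.33, -0.31] and a length-relative ratio of -0.48 [-0.49, -0.47]. Its gene is X-linked (38399647 to 38456460). Lamp1, on chromosome 8 (13159161 to 13175338), had 77976 and 84056 counts, a log2 ratio of 0.09 [0.07, 0.10] and a length-relative ratio of -0.03 [-0.04, -0.01]. In control livers Lamp2 was thus the higher of the pair per length (318 against 283 CPM per kb), and in erythrodiol livers Lamp1 was (301 against 255). Counts for Lamp2 are summed over its isoforms, so the isoform of chaperone-mediated autophagy was not measured apart.

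**Figure D3:**
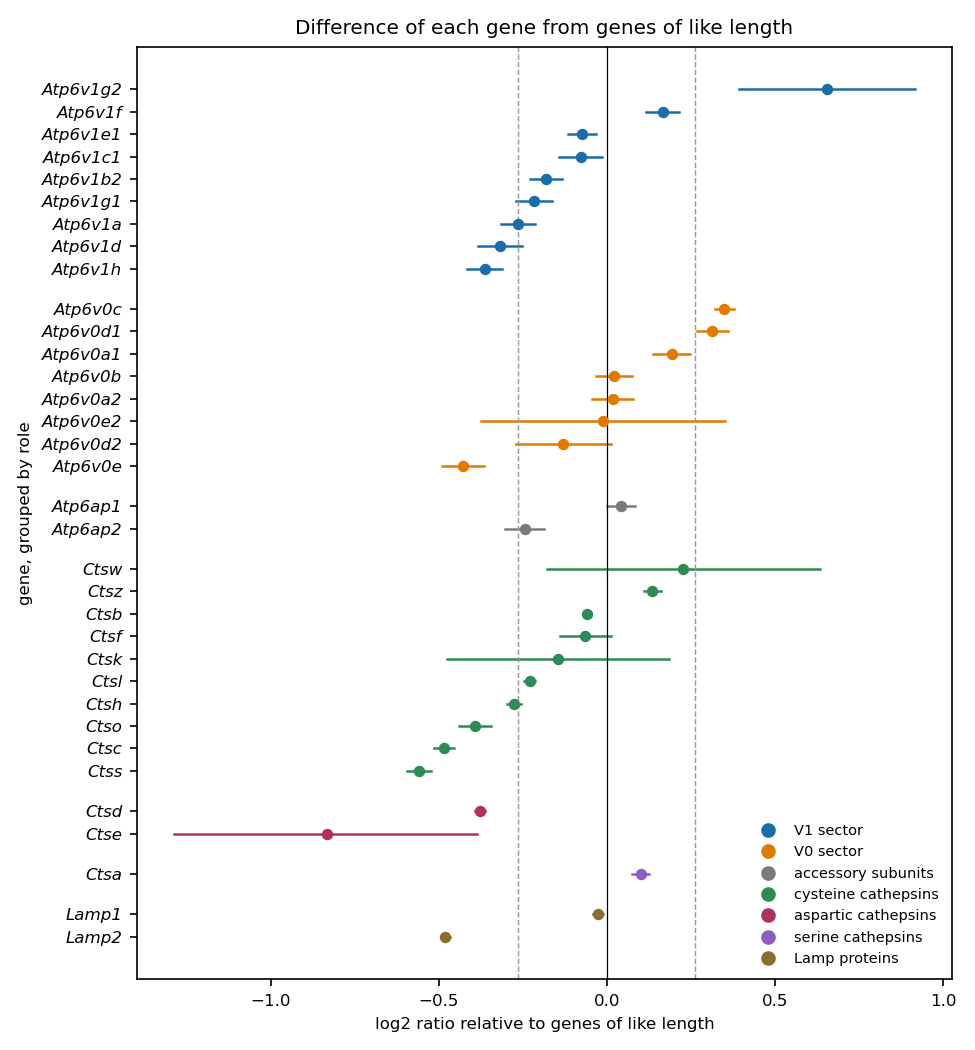
Length-relative log2 ratio of the 34 genes, grouped by role, with the 95% counting interval as a line. The solid line is 0, the median of genes of like length, and the dashed lines are the 1.2-fold limit of 0.26 in either direction. The 3 genes past the limit on the right all belong to the pump, and 6 of the 11 on the left are cathepsins.

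The 6 genes under 100 counts were forms known mainly from other organs or from blood cells. Control and erythrodiol counts were 34.9 and 33.7 for Atp6v0a4, 1 and 1 for Atp6v1c2 and 1 and 0 for Atp6v1g3, which are pump forms of the kidney. They were 3 and 1 for Ctsg, a protease of neutrophil granules, 3 and 4 for Ctsj, a placental cathepsin, and 4 and 3 for Lamp3. At these counts no difference was detectable, and 39 of the 40 genes had counts in both groups.

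The 5 genes with the TFEB-type core did not share a direction. Their length-relative ratios were 0.31 for Atp6v0d1, 0.10 for Ctsa, -0.26 for Atp6v1a, -0.38 for Ctsd and -0.43 for Atp6v0e. The M-box holders Atp6v0c and Ctss likewise lay apart, at 0.35 and -0.56. Of the 40 genes, 27 were annotated to the lysosome in the cellular component column of the deposited table. New coding transcripts, assembled by the authors over all libraries, were listed for 8 of the 40 genes (14 transcripts, 6 of them at Atp6v1c2), while 28.5% of the reference genes in the table had one. None of the 40 was among the 16 splicing events that remained after the authors' filter.

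Other genes of lysosome function had length-relative medians closer to 0 than the cathepsins did, and unless said otherwise the values and counts that follow are by the length-relative ratio. By the length-relative ratio 9.49% of all genes were higher and 17.6% lower. By the log2 ratio, by which 33.7% of all genes were higher and 11.4% lower, more of these lysosomal genes were called higher. Of 10 genes for pump assembly and for the RAVE complex, which rejoins V1 to V0, none was higher and 1 lower, with a median of -0.05, and by the log2 ratio 2 were higher and none lower. They ranged from Ncoa7 (-0.39) to Rogdi (0.22), and Oxr1 had the most counts (-0.04). Of 10 channels and ion carriers, 1 was higher and 1 lower, with a median of 0.06, and by the log2 ratio 6 were higher and none lower. The calcium channel Mcoln1 was at 0.27, the chloride carrier partner Ostm1 at -0.41 and Tpcn1, with the most counts, at 0.26. Of 32 glycosidases, lipases and other hydrolases, 2 were higher and 4 lower, with a median of -0.01, and by the log2 ratio 6 were higher and none lower. Arylsulfatase Arsa was at 0.28, the phospholipase Pla2g15 at -0.42 and prosaposin (Psap), the precursor of sphingolipid activators, at -0.01.

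Peptidases that are not cathepsins were nearer to the cathepsins. Of 7 genes 1 was higher and 3 were lower, with a median of -0.13, among them Prcp at -0.46 and legumain (Lgmn), the asparaginyl protease that processes several cathepsins, at -0.32, while Scpep1 was at 0.27. On the scale of totals (log2 ratio) 2 were higher and 1 lower. Of the cystatin-type inhibitors of cathepsins, Cstb was at 0.15 and Cst3 at -0.19. Their log2 ratios were both below 0, at -0.19 and -0.42, and only that of Cst3 was past the limit. Cst7 (16 and 24 counts) and Cst6 (3 and 0 counts) were under 100 counts. Of 16 other lysosomal membrane proteins none was higher and 1 lower, with a median of -0.03, from Cd63 (-0.38) to Ctns (0.25), and Cd164 had the most counts (-0.10), and by the log2 ratio 3 were higher and 1 lower. None of 9 genes of mannose 6-phosphate sorting, the route by which newly made hydrolases reach lysosomes, was past the limit among genes of like length, with a median of 0.07, Gga3 at 0.25 and M6pr at -0.13. Of these 9, 6 were higher and none lower by the log2 ratio, with a median of 0.28. Of 18 genes of the TFEB family and of mTORC1 at the lysosome, 3 were higher and 4 lower, with a median of 0.08, and by the log2 ratio 6 were higher and 3 lower. The TFEB relative Tfec, known from macrophages, was lowest with 519 and 296 counts (-0.94). Lamtor2 was highest (0.36), but its log2 ratio was 0.03, and short genes such as this one (586 bases) had a median of -0.34. Mtor had the most counts (0.16), and Rragb had 16 and 13 counts. Over the 345 other genes annotated to the lysosome, a list chosen after their values were seen, 7.83% were higher and 14.5% lower, with a median of -0.01, and by the log2 ratio 106 were higher and 29 lower.

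Markers of several cell types also differed between the groups, and their values too are length-relative unless said otherwise. By that ratio 9.49% of all genes were higher and 17.6% lower, and by the log2 ratio 33.7% and 11.4%. In bulk liver, fewer cells of a type and less RNA per cell cannot be told apart. Of 10 markers of Kupffer cells and macrophages, 9 were lower past 1.2-fold by the length-relative ratio, with a median of -0.59, and their summed level was 1274 CPM in control and 851 with erythrodiol. Marco was at -1.17, Cd5l at -0.80 and Clec4f at -0.79, while Cd68 was at 0.06, and no marker of this list was at 0 counts. Counted by the log2 ratio 8 were lower and none higher. Of 7 markers of lipid-associated macrophages 4 were lower on either scale and none higher, with a median of -0.37 and a summed level of 381 and 331 CPM. Spp1 was at -0.63, and Cd9 and Lpl were at -0.10. The part of these cells in the lower values of Ctss, Ctsc, the other cathepsins and Lamp2 was not tested.

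Of 9 neutrophil markers only 3 had at least 100 counts, all lower, with a median of -0.85 and a summed level of 12.04 and 4.44 CPM. Prtn3 had 367 and 41 counts (-3.05), S100a9 702 and 329 (-0.78) and S100a8 411 and 183 (-0.85), which were lower by the log2 ratio too. In the study's RT-qPCR of single livers, Prtn3 was reported as significantly lower with erythrodiol, and its standard deviation in controls exceeded its mean. Under 100 counts were Ltf (59 and 16), Retnlg (42 and 36), Ngp (36 and 19), Elane (24 and 14), Mpo (13 and 3) and Camp (5 and 4). Of 8 T and NK cell markers 1 was higher and 3 lower, with a median of -0.15, from Cd3d (-0.44) to Nkg7 (0.34), and Gzmb was at 0.0040, while by the log2 ratio 3 were lower and none higher. Ctsw is best known from these cells, whose markers had a summed level of 6.18 and 5.57 CPM. None of 5 sinusoidal endothelial markers was past the limit (median -0.17), from Clec4g at -0.25 to Kdr at 0.06, with Stab1 at -0.06 and Stab2 at -0.17. Of 5 stellate cell markers 3 were lower among genes of like length (median -0.28), with Dcn at -0.28, Col3a1 at -0.39, Lrat at -0.42 and Reln at -0.16. None of the 5 was past the limit by the log2 ratio (median -0.12, with Reln at 0.19), and of the endothelial markers 2 were higher. All 4 bile duct markers were lower (median -0.51), from Krt19 at -0.90 and Epcam at -0.67 to Sox9 at -0.33, and 3 of the 4 were lower by the log2 ratio. Of 10 hepatocyte markers 3 were higher and none lower, with a median of 0.21 and a summed level of 109121 and 112143 CPM. Of the 10, 6 were higher and none lower by the log2 ratio. Alb was at -0.16, Cyp2e1 at 0.23 and Pck1 at 0.50. In both groups the hepatocyte markers had the highest summed level of all these lists, in samples labelled as liver.

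**Figure D4:**
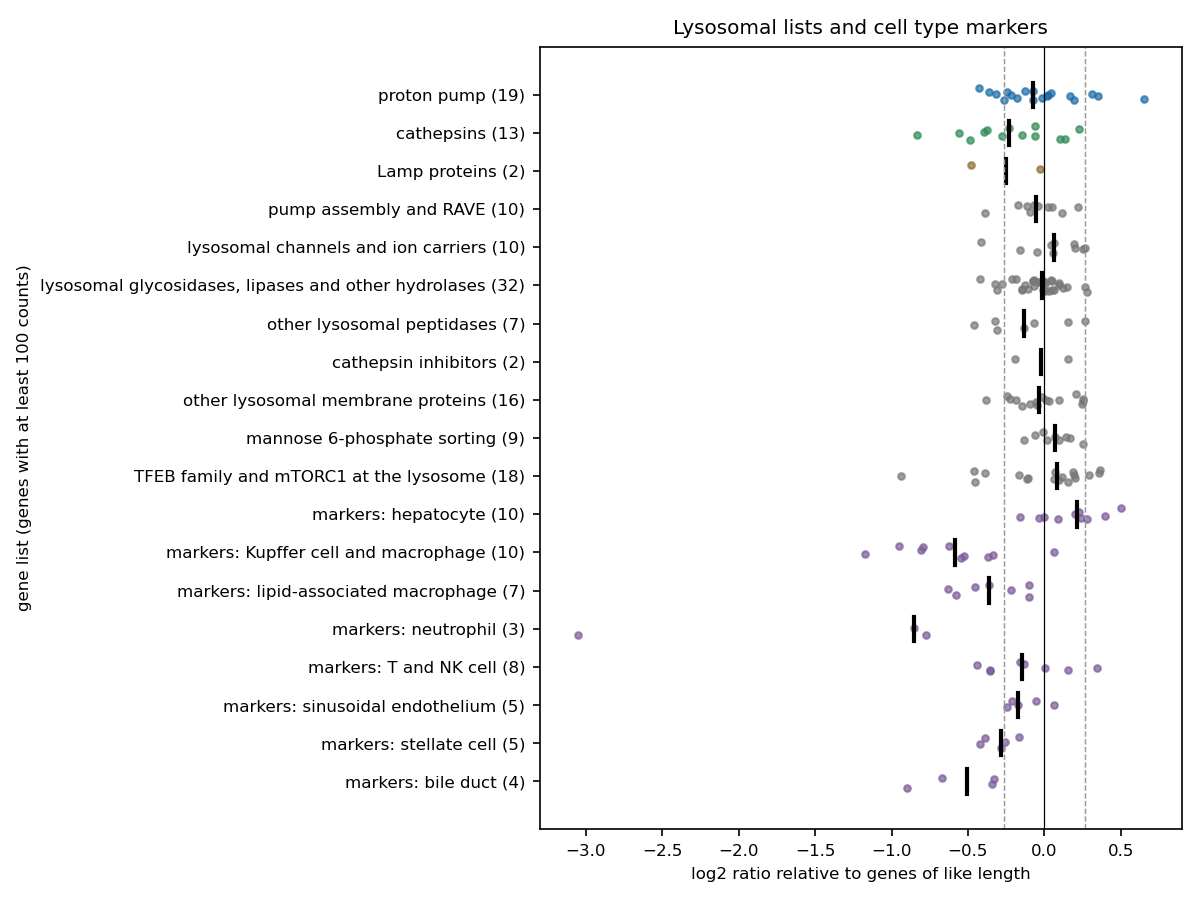
Length-relative log2 ratio of single genes (points) by list, with the number of genes with at least 100 counts in parentheses and the list median as a black bar. The dashed lines are the 1.2-fold limit. The medians of the pump (-0.07), the cathepsins (-0.23), the Kupffer cell and macrophage markers (-0.59) and the hepatocyte markers (0.21) can be compared, and the point farthest left is Prtn3 at -3.05.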

How the data were processed

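Liver polyA RNA of 7 control and 7 erythrodiol pools was sequenced on the BGISEQ-500 platform. The authors removed low-quality reads, used HISAT for genome mapping and StringTie and Cufflinks for new transcripts, and estimated counts of genes with Bowtie2 and RSEM. The authors deposited an expected count per gene and group, not normalized and summed over libraries. Per library, the authors deposited the count of clean reads and the percent mapped to genes. The authors' own ratios, p-values and q-values, from a comparison named for DEGseq, were not used. Coordinates are those of GRCm38, and promoter sequences are from RefSeq (GRCm38.p6).

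Members and gene lists were chosen with earlier results of these data known. Genes with a sum of at least 100 counts over both groups were described, all members by role and, from other lists, the highest, the lowest and the most counted (the 2 most counted for markers). Tcirg1 and the neutrophil markers under 100 counts were named after their values were seen. The result of 1 marker list is not reported here. Neighbours in length were the 500 nearest by rank. At either end of the range of lengths, genes shared the same 500. No test was possible with 1 sum per group. Counts were rounded for exact binomial intervals at 95%. Calculations were tested on simulated data. Alternatives were edgeR 4.0.16 TMM, DESeq2 1.42.0 size factors, a minimum of 10 counts, 1.1-fold, 200 or 1000 neighbours, and neighbours by length and level. R 4.3.3, scipy 1.17.1, matplotlib 3.10.9, pandas 2.3.3 and numpy 2.4.6 (Python 3.11.15) were used.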

Additional observations from a re-analysis of the deposited data

Results flagged for a closer look

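The share of clean reads mapped to genes was 64.3% in control replicate 3, while the other control libraries reached up to 81.4% and the erythrodiol libraries lay between 73.0% and 76.1%. Its distance to the nearest control library was large for the range of the group by Dixon's criterion, which chance passes in about 1 in 20 groups. The counts of the lysosomal genes are sums that include this library, which by reads and mapping rate supplied an estimated 9.12% of the control sum.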

How the results depend on the processing

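The scaling of the sums moved the counts scaled by totals. TMM lowered every log2 ratio by 0.16 and the median of ratios by 0.15. With TMM, 2 lysosomal genes (Atp6v1g2 and Atp6v0a1) were higher and 14 lower (median -0.21), and with the median of ratios 2 were higher and 13 lower (median -0.20). TMM also turned the split over all genes to 11.5% higher and 19.8% lower, and the median of ratios to 12.6% and 19.1%. With at least 10 counts the median scaled by totals was -0.069, and at 1.1-fold 9 genes were higher and 13 lower. Among genes of like length, which no scaling alters, the median was -0.13 with 200 neighbours and -0.090 with neighbours by length and level. It was -0.12 with at least 10 counts, and at 1.1-fold 6 genes were higher and 16 lower. Shares of all genes at 1.1-fold were not computed for either scale. The same 3 genes were higher with 200 neighbours, 1000 neighbours and neighbours by length and level. Ctsh was not past the limit with 200 neighbours and Atp6v1a not with 1000, and the other 10 of the 11 lower genes remained in each case. The cause of these shifts was not tested. No paired analysis was possible because the gene values are sums over the libraries of a group and come from no test, and for the same reason no library could be left out. Genes with few counts, such as Ctse, Ctsw and Ctsk, have wide intervals, and the sums do not show the spread between mice for any gene.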
